A study of Homo sapiens with 2 samples.

Results

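Clade B serpins are the intracellular branch of the serpin family, and 10 of them were described here out of 27685 genes in the deposited gene table. The members were taken by gene symbol, SERPINB1 to SERPINB9 together with SERPINB13, by a rule that uses no measured value. Of these, 7 lie in a cluster on chromosome 18 and 3 in a cluster on chromosome 6. RNA was sequenced from untreated cells of H2087 and of H596, with 1 library each, both established human cell lines labelled as lung adenocarcinoma and grown in RPMI medium with fetal bovine serum. Library totals, summed over the estimated counts of every gene, were 46961500 for H2087 and 55387847 for H596, and the level of a gene was its deposited FPKM, a read abundance scaled to transcript length and library size. With 1 library per cell line there was no replicate, so no test between the cell lines was made and each 95% interval covers counting error only.

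Most serpins inhibit proteases by presenting a reactive centre loop as bait, which the protease cleaves and to which it then becomes covalently trapped as the serpin changes shape. Clade B serpins lack a classical secretion signal and act mainly inside cells, where they protect against proteases released from lysosomes or granules. In stratified squamous epithelia several genes of the chromosome 18 cluster are abundant, and SERPINB3 and SERPINB4 are known as the squamous cell carcinoma antigens, whereas the chromosome 6 genes are expressed more widely.

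SERPINB3 and SERPINB4 are neighbours on chromosome 18 and near copies, and the extent of that likeness bears on how far their reads can be separated. In the GRCh37 reference with GENCODE transcripts, 56 of their 1170 coding bases differed, an identity of 95.2%, and the longest identical coding run was 129 bases. Of all stretches of 50 bases in the SERPINB3 transcript 24.9% also occurred in the SERPINB4 transcript. The share was 3.54% for stretches of 100 bases and 0 of 1558 for stretches of 150 bases. The differences were uneven along the coding sequence, with 2 of 129 bases in exon 4 and 13 of 143 bases in exon 6. The 90-base coding stretch with most differences, coding bases 970 to 1059 in exon 8, held 13 of the 56, or 23.2%. It lies toward the 3′ end of the coding sequence, the side on which the reactive centre loop of a serpin is encoded. The stretch is printed because it is where the copies are easiest to tell apart, at chr18:61323005-61323094 for SERPINB3 and chr18:61305067-61305156 for SERPINB4, both of GRCh37 and on the minus strand, with the bases that differ in capitals.
SERPINB3: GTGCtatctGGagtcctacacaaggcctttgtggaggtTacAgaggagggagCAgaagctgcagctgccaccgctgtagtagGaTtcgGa
SERPINB4: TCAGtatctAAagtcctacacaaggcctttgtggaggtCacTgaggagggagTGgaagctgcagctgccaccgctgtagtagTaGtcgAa

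The sequences before the transcription start were closer still. RefSeq promoter windows of GRCh38.p14, which cover 250 bases before to 50 bases after the start, were matched for all 10 members, and those of SERPINB3 and SERPINB4 differed at 4 bases. From 250 to 71 bases before the start they differed at 1 of 180. These stretches were found unchanged at chr18:61329198-61329377 and chr18:61311561-61311740 of GRCh37 on the minus strand. They are shown, with the differing base in capitals, for how alike the copies are. No promoter activity was measured, and a part of this likeness in the expression of the genes was not tested.
SERPINB3: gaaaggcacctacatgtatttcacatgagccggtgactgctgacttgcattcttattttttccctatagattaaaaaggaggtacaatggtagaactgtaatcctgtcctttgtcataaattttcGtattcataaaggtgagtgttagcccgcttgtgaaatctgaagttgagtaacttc
SERPINB4: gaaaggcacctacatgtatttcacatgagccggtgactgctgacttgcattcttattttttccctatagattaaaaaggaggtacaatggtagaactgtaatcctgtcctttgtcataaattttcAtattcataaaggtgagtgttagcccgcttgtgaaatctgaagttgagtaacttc

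The label of the lines was first set against cell type markers, and H596 had few of those of a lung adenocarcinoma. A gene was called when log2(FPKM + 1) in H596 less that in H2087 was at least 1 in size, provided that its mean FPKM reached 1, a scale that understates the differences of low genes. Of 10 squamous and basal markers, 7 were called higher in H596 and none lower, and their summed FPKM was 41.1 in H2087 and 4103 in H596. KRT13 gave 3558 of the sum in H596, and SOX2, which was not called at 39.1 FPKM in H2087 and 56.5 in H596, gave most of the sum in H2087. The factor TP63 had 0.183 FPKM in H2087 and 55.2 in H596, and the basal keratin KRT5 had 0 counts in H2087 and an FPKM of 106 in H596. Of 8 lung adenocarcinoma and alveolar markers, 4 were called lower in H596 and none higher, and their summed FPKM was 1106 in H2087 and 609 in H596. The lung lineage factor NKX2-1 had 110.0 FPKM in H2087 and 0.508 in H596, and SFTPA1, a surfactant protein gene, had 82.9 FPKM in H2087 and 0 counts in H596. The lung adenocarcinoma label of H596 thus goes against these markers, apart from the simple-epithelium keratin KRT7, whose FPKM of 608 made up nearly all of the sum in H596. SFTPB, SFTPC and SFTPD were at most 0.215 FPKM in either library, so their lack was not particular to H596. The squamous markers KRT14 and PKP1 did not pass the filter. Among 5 epithelial markers, 1 was called higher and 3 lower in H596, where other simple-epithelium keratins remained, with KRT19 at 2183 FPKM and KRT8 at 536. The part of these marker differences in the serpin values was not tested, and fewer cells of a type and less RNA per cell cannot be told apart in such bulk samples. Leukocyte markers, 8 in all and listed because SERPINB1, SERPINB2, SERPINB9 and SERPINB10 are made by blood cells, had an FPKM of at most 0.421 in either library, and PTPRC had 0 counts in both. Of the 6 stromal markers, DCN was called higher in H596, with 0 counts in H2087 and 2361 counts (9.77 FPKM) in H596, and COL1A1 was called lower, with an FPKM of 3.89 and 0.916. SPARC had 85 counts in H2087 and 0 in H596, and COL1A2 had 0 counts in both, so the stromal sums of 4.39 and 10.7 FPKM hold members that went opposite ways.

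The larger differences between the cell lines lay in the chromosome 18 cluster, and they went in opposite directions along its length. SERPINB2, SERPINB5, SERPINB7, SERPINB8 and SERPINB13 were higher in H596, while SERPINB3 and SERPINB4 were higher in H2087. On chromosome 6, SERPINB1 was higher in H2087 and SERPINB6 in H596, both by less than 2-fold, and SERPINB9 was at the limit of detection in both. The squamous cell carcinoma antigens SERPINB3 and SERPINB4 were thus high in H2087, the line in which those 7 squamous markers were lower. Of the 10 members, 5 were called higher and 2 lower in H596, 2 passed the filter without a call, and SERPINB9 did not pass it. Among all 13048 genes past the filter 18.2% were called higher, 14.2% lower and 32.4% in either direction. SERPINB2, SERPINB3, SERPINB4, SERPINB7 and SERPINB13 had an FPKM of at least 1 in 1 of the libraries only. Each passed the filter through the library in which it was high and had to differ, though not by the size called. The filter thus favours members that differ, and the count of called members is a description.

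**Figure D1:**
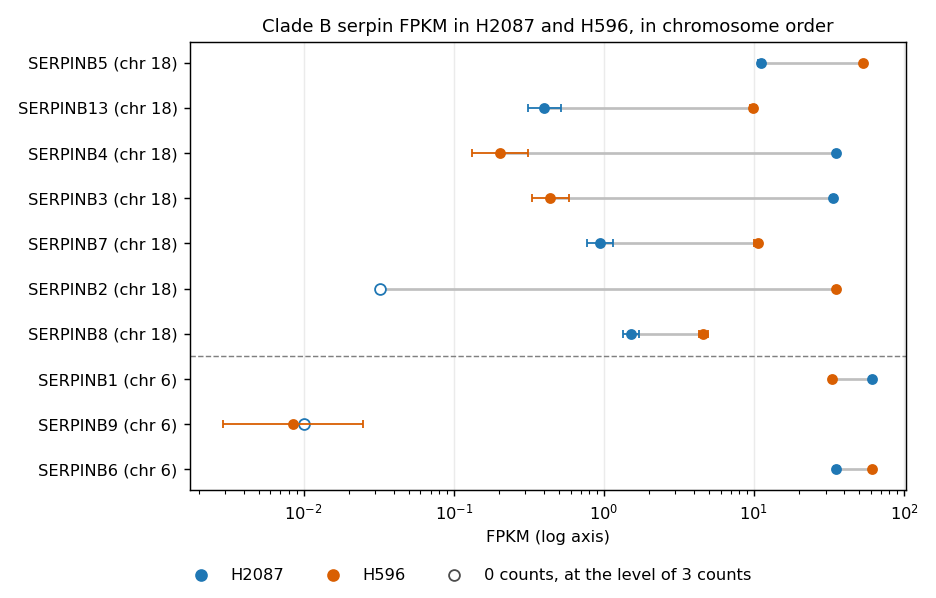
FPKM of the 10 clade B serpins on a log axis, in chromosome order, for H2087 (blue) and H596 (orange), with 95% Wilson intervals of the count share as error bars. Open circles stand at the FPKM of 3 counts for genes with 0 counts. SERPINB3 and SERPINB4 lie to the right in H2087, SERPINB2, SERPINB5, SERPINB7, SERPINB8 and SERPINB13 lie to the right in H596, and the points of SERPINB1 and SERPINB6 are close to each other.

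SERPINB3 inhibits cysteine cathepsins such as cathepsin L, and SERPINB4 inhibits cathepsin G and mast cell chymase. SERPINB3 (gene 6317, 61322431 to 61329197 on chromosome 18 of hg19) had an FPKM of 33.7 (95% interval, 32.5 to 35.0) from 2873 counts in H2087 and 0.441 (95% interval, 0.330 to 0.590) from 45 counts in H596. Its level was thus 76.5-fold higher in H2087 (95% interval, 57.0 to 105). SERPINB4 (gene 6318, 61304493 to 61311553) had an FPKM of 35.3 (95% interval, 34.1 to 36.6) from 2994 counts in H2087 and 0.203 (95% interval, 0.133 to 0.310) from 21 counts in H596, a level 174-fold higher in H2087 (95% interval, 114 to 282). In H2087 the levels of the copies could not be told apart by counting error, and both were among the most expressed clade B serpins.

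Because the division of reads between such copies is uncertain, they were also summed. Their summed FPKM was 69.0 from 5867 counts in H2087 and 0.644 from 66 counts in H596, a 107-fold difference (95% interval, 84.1 to 139) that does not depend on how reads were shared between them. SERPINB3 took 49.0% of the counts of the pair in H2087 (95% interval, 47.7 to 50.2) and 68.2% in H596 (95% interval, 56.2 to 78.2). The latter share rests on few counts. The listed SERPINB3 transcript was single, and of the SERPINB4 transcripts NM_002974 held 97.7% of the FPKM in H2087.

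SERPINB2, an inhibitor of the urokinase and tissue plasminogen activators, was the member with the largest difference towards H596. SERPINB2 (gene 5055, 61554939 to 61571124 on chromosome 18) had 0 counts in H2087, where the upper limit of a zero count, taken as 3 counts in this library, would be an FPKM of 0.0325. In H596 it had an FPKM of 35.2 (95% interval, 34.1 to 36.3) from 3832 counts, at least 1083-fold higher. Transcript NM_002575 held 95.8% of its level and NM_001143818 the remaining 4.21%, so the gene was detected in H596 through its main transcript and was not detectable in H2087 at this depth.

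SERPINB5, known as maspin, is a clade B serpin without protease inhibitory activity that is made by many glandular and squamous epithelia. Its level (gene 5268, 61144144 to 61172318 on chromosome 18) was an FPKM of 11.1 (95% interval, 10.6 to 11.7) from 1405 counts in H2087 and 53.3 (95% interval, 52.2 to 54.5) from 7966 counts in H596, a 4.79-fold difference (95% interval, 4.52 to 5.07). It was the only member of the chromosome 18 cluster with an FPKM above 10 in both libraries, and it had a single listed transcript.

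SERPINB13 and SERPINB7 are expressed in stratified epithelia, and SERPINB13 inhibits cathepsins L and K. SERPINB13 (gene 5275, 61254534 to 61266433) had an FPKM of 0.402 (95% interval, 0.314 to 0.516) from 62 counts in H2087 and 9.91 (95% interval, 9.47 to 10.4) from 1796 counts in H596, a 24.6-fold difference (95% interval, 19.1 to 32.3). All of its counts in H2087 were assigned to 1 transcript, NM_001307923, whereas 5 of its 6 transcripts had counts in H596, with NM_012397 at 34.4% and NM_001307923 at 25.9%. SERPINB7 (gene 8710, 61420281 to 61472610) had an FPKM of 0.945 (95% interval, 0.776 to 1.15) from 99 counts in H2087 and 10.6 (95% interval, 10.0 to 11.2) from 1278 counts in H596, an 11.2-fold difference (95% interval, 9.15 to 13.9). Both genes were low in H2087 and reached similar levels in H596, where their intervals overlapped. The transcripts of SERPINB7 kept their order, NM_003784 holding 75.7% of the FPKM in H2087 and 55.2% in H596.

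SERPINB8, which inhibits the proprotein convertase furin, had the smallest difference of the chromosome 18 members. Its level (gene 5271, 61637263 to 61687013) was an FPKM of 1.51 (95% interval, 1.34 to 1.72) from 242 counts in H2087 and 4.59 (95% interval, 4.29 to 4.91) from 840 counts in H596, a 3.03-fold difference (95% interval, 2.62 to 3.51). Of its 9 listed transcripts, 3 had counts in H2087 and 8 in H596. By the highest single transcript in each library the difference of log2(FPKM + 1) was 0.57 in place of 1.15, which is below the size called.

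The chromosome 6 members differed by less than 2-fold or were barely detected. SERPINB1, an inhibitor of neutrophil elastase, cathepsin G and proteinase 3, lies at 2832566 to 2842283 (gene 1992). Its FPKM was 61.0 (95% interval, 59.6 to 62.3) from 7789 counts in H2087 and 33.3 (95% interval, 32.4 to 34.2) from 5040 counts in H596, a level 1.83-fold higher in H2087 (95% interval, 1.77 to 1.90). SERPINB6, an inhibitor of cathepsin G and thrombin, lies at 2948393 to 2972399 (gene 5269) and went the other way. Its FPKM was 35.3 (95% interval, 34.1 to 36.6) from 2979 counts in H2087 and 61.3 (95% interval, 59.8 to 62.9) from 6248 counts in H596, a 1.74-fold difference (95% interval, 1.66 to 1.81). Both differences exceeded counting error and neither reached 2-fold in the deposited FPKM, though each came near it under another scaling given below.

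The transcripts of SERPINB6 differed more than the gene. Among its 8 listed transcripts NM_004568 had 11.5 FPKM in H2087 and 34.9 in H596, and its share of the gene was 32.7% in H2087 and 56.9% in H596. NM_001271822 had 13.6 FPKM in H2087 and 17.3 in H596, or 38.4% and 28.3% of the gene. The leading transcript therefore differed between the cell lines, and by the highest single transcript SERPINB6 differed by more than 1 on the log2(FPKM + 1) scale, against 0.78 for the gene, and would be called. In SERPINB1, by contrast, NM_030666 held 94.1% of the FPKM in H2087 and 92.6% in H596. The division of reads among transcripts that share exons is an estimate whose error these intervals do not cover.

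SERPINB9, the inhibitor of granzyme B that shields cytotoxic lymphocytes from their own granules, lies between the other two chromosome 6 genes at 2887500 to 2903546 (gene 5272). It had 0 counts in H2087 and 3 counts in H596, an FPKM of 0.00849 (95% interval, 0.00289 to 0.0250). The upper limit of a zero count in H2087 was an FPKM of 0.0100, so no difference was detectable at this depth. The adjacent pseudogene SERPINB9P1 had an FPKM of 2.52 from 152 counts in H2087 and 0.189 from 14 counts in H596.

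In H2087 the order of levels was SERPINB1, SERPINB6, SERPINB4, SERPINB3, SERPINB5, SERPINB8, SERPINB7 and SERPINB13, with SERPINB2 and SERPINB9 at 0 counts. The intervals of SERPINB6 and SERPINB4 overlapped, as did those of SERPINB4 and SERPINB3, and no other neighbours in this order overlapped. In H596 the order was SERPINB6, SERPINB5, SERPINB2, SERPINB1, SERPINB7, SERPINB13, SERPINB8, SERPINB3, SERPINB4 and SERPINB9, in which SERPINB2 overlapped with SERPINB1 and SERPINB7 with SERPINB13. Thus SERPINB1 and SERPINB6 exchanged the first place, and SERPINB3 and SERPINB4 moved from places 3 and 4 to 8 and 9. Members reached no further than rank 1227 of all genes in H2087 and 1172 in H596, and none had an FPKM of 100, the level at which the study took a gene as highly expressed.

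Summed over members, the clusters differed in composition more than in total. The 7 chromosome 18 members summed to 83.0 FPKM in H2087 and 114 FPKM in H596, a ratio of 1.38, and the 3 chromosome 6 members to 96.3 and 94.6 FPKM, a ratio of 0.982. SERPINB3 and SERPINB4 together made up 83.1% of the chromosome 18 sum in H2087 and 0.564% in H596. SERPINB5 made up 13.4% of it in H2087 and 46.7% in H596, and SERPINB2 0 and 30.8%. On chromosome 6, SERPINB1 held 63.3% of the sum in H2087 and 35.2% in H596. The totals of the chromosome 18 cluster were thus made up of different serpins in the cell lines.

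**Figure D2:**
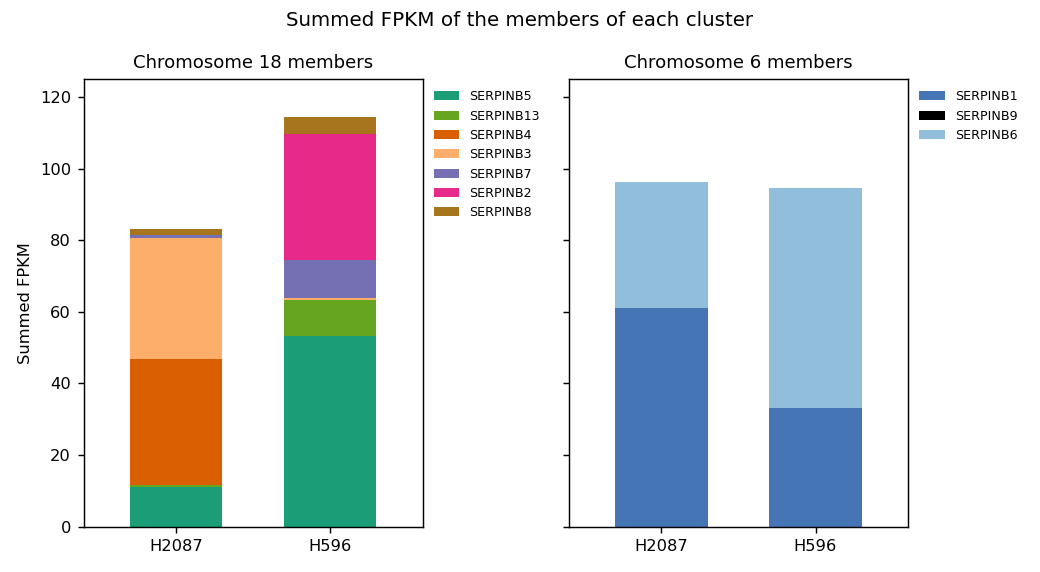
Summed FPKM of the chromosome 18 members (left) and the chromosome 6 members (right) in H2087 and H596, with 1 bar for each library, stacked by gene. The chromosome 18 bars, 83.0 and 114, are filled mostly by SERPINB3 and SERPINB4 in H2087 and by SERPINB5 and SERPINB2 in H596, while the chromosome 6 bars are 96.3 and 94.6.

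The median difference of log2(FPKM + 1) was 2.16 over the chromosome 18 members, which ranged from -4.92 for SERPINB4 to 5.18 for SERPINB2, and 0.01 over the chromosome 6 members, which ranged from -0.85 to 0.78. Setting SERPINB2 in H2087 to its limit of 3 counts left the chromosome 18 median at 2.16. The median size of the difference, regardless of direction, was 2.96 on chromosome 18 and 0.78 on chromosome 6. Over all 13048 genes past the filter it was 0.66, but the comparison is uneven, since 5 of the chromosome 18 members passed the filter through 1 library only and the chromosome 6 value includes SERPINB9, which did not pass it. Members of a cluster are not replicates, and no test was made between the clusters.

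Within the chromosome 18 cluster, the members higher in H2087 were a single adjacent pair of near copies. SERPINB3 and SERPINB4 are the only listed members of that cluster on the minus strand, and they lie next to each other between SERPINB13 and SERPINB7, whereas the 5 members higher in H596 are all on the plus strand. The same strand carries the other clade B genes of this cluster. SERPINB10, next to SERPINB2, had 0 counts in H2087 and an FPKM of 4.33 (95% interval, 3.97 to 4.72) from 522 counts in H596, at least 148-fold higher. SERPINB11 had 10 counts in H2087 and 0 in H596, and SERPINB12 had 5 and 3, so both were near the limit of detection. On chromosome 6 all 3 members are on the minus strand, and they did not share a direction.

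**Figure D3:**
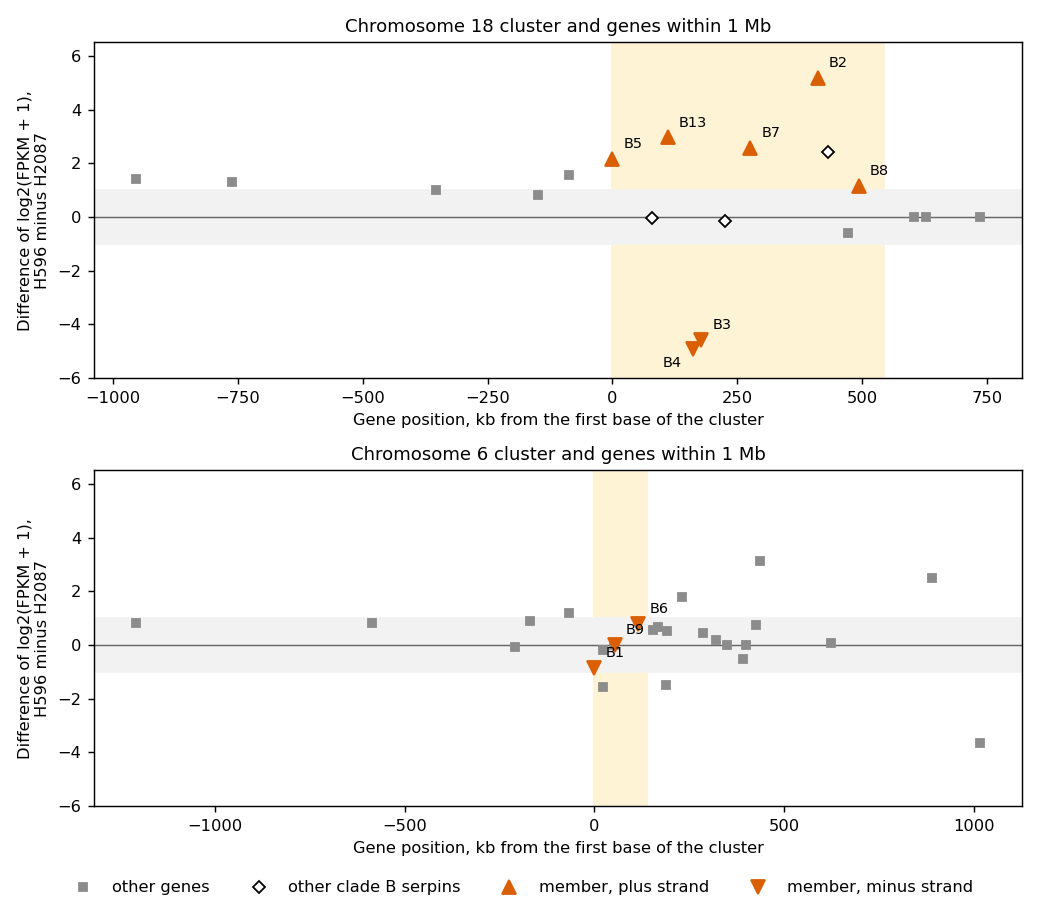
H596 minus H2087 in log2(FPKM + 1) of each gene against the position of its first base in kb from the start of the cluster, for the chromosome 18 cluster (top) and the chromosome 6 cluster (bottom), shaded, with genes up to 1 Mb away. Triangles are members, pointing up on the plus strand and down on the minus strand. The grey band marks differences below 1 in size on this scale, which for genes of low FPKM can be more than 2-fold in FPKM. On chromosome 18 the minus-strand SERPINB3 and SERPINB4 lie at -4.59 and -4.92 and the plus-strand members above 1, while the chromosome 6 members lie within the band.

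Genes outside the family were examined over 1 Mb on either side. For comparison, 18.2% of all 13048 genes past the filter were called higher in H596 and 14.2% lower, with a median difference of 0.12. Before the chromosome 18 cluster, all 5 neighbours were higher in H596, 4 of them called, with a median difference of 1.31 and a range from 0.82 to 1.57. They were ZCCHC2, PHLPP1, BCL2, KDSR and VPS4B, the last of which, 54.4 kb from SERPINB5 and encoding an endosomal sorting ATPase, had 8.34 FPKM in H2087 and 26.8 in H596. After the cluster, the nearest gene was LINC00305, and all 3 noncoding genes there had 0 counts in both libraries. SERPINB3 and SERPINB4 therefore went against the neighbours before the cluster, and SERPINB8 differed by about as much as they did. Around the chromosome 6 cluster, 11 of the 14 neighbours past the filter were higher in H596, with a median of 0.72, and 4 were called higher and 2 lower. The nearest were WRNIP1, with 22.1 FPKM in H2087 and 51.7 in H596, and LINC01011, with 0.664 and 1.48. The largest differences were those of SLC22A23, with an FPKM of 0.848 and 15.2, and FAM50B, with 11.9 in H2087 and 3 counts in H596. Gene copy number was not measured, and its part in these differences was not tested.

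The promoter windows of the members were searched for TATAAA and for TGANTCA, a general form of the site bound by AP-1 factors, on both strands. The form TGANTCA matches its own reverse complement, so a site is found on both strands at once. These motifs were chosen after the expression values had been seen, so how they divide the members is a description only. TGANTCA occurred in 6 of the 15 windows of the members, and in 7.71% of all 35116 windows. The members with it were SERPINB2, SERPINB5, SERPINB7, SERPINB8 and SERPINB13, which are the 5 called higher in H596. It was in no window of the other 5 members, but those of SERPINB3 and SERPINB4 are nearly the same sequence. The unlisted SERPINB10, also called higher in H596, was not searched. SERPINB7 has 3 windows and SERPINB6 also has several, so both had more chances of a match. The share of 7.71% is one of windows and not of genes, so it is no measure for the split of members. TATAAA occurred in 6 of the 15 windows, of SERPINB2, SERPINB6, SERPINB7, SERPINB8, SERPINB9 and SERPINB13, and in 11.5% of all windows. A match says only that these letters are present, and no binding was measured. The 250 bases before the start of SERPINB2, the member with the largest difference, are at chr18:61554689-61554938 of GRCh37 on the plus strand, with the TGANTCA match at -102 and the TATAAA match at -30 from the start in capitals.
SERPINB2: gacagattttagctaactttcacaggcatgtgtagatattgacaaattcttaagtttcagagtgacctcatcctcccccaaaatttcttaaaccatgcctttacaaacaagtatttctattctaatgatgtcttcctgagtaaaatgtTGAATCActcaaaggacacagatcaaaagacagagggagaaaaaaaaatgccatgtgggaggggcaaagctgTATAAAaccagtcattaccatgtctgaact

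Proteases that clade B serpins are known to inhibit were taken as a list of 13 genes, of which 7 passed the filter. Of these, 3 were called higher and 2 lower in H596, beside shares of 18.2% and 14.2% of all genes past the filter. Among cysteine cathepsins, the targets of SERPINB3 and SERPINB13, CTSL had an FPKM of 28.0 (95% interval, 26.8 to 29.2) in H2087 and 73.3 (95% interval, 71.6 to 75.1) in H596. CTSV, a close relative of cathepsin L, had one of 2.72 and 10.9, and CTSK one of 0.590 and 4.01. These cathepsins were higher in H596, the line in which SERPINB3 was low and SERPINB13 high, whereas CTSS was close to even, with 22.0 FPKM in H2087 and 20.1 in H596.

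The plasminogen activators went the other way from SERPINB2, their inhibitor. PLAU, the urokinase gene, had an FPKM of 318 (95% interval, 315 to 321) in H2087 and 130 (95% interval, 128 to 132) in H596, and PLAT, the tissue activator gene, had one of 122 (95% interval, 121 to 124) in H2087 and 15.8 (95% interval, 15.2 to 16.4) in H596. Both had high RNA levels in H2087, where no SERPINB2 counts were found, and PLAU had a higher FPKM than SERPINB2 in H596. For these genes and the cathepsins only RNA was measured, so protein amounts and the inhibition of the proteases are not known. FURIN, the target of SERPINB8, had 30.3 FPKM in H2087 and 26.0 in H596. The leukocyte and mast cell targets ELANE, CTSG, CMA1 and GZMB had 0 counts in both libraries, as did the thrombin gene F2, and PRTN3 had 15 counts in H2087 and 7 in H596.

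**Figure D4:**
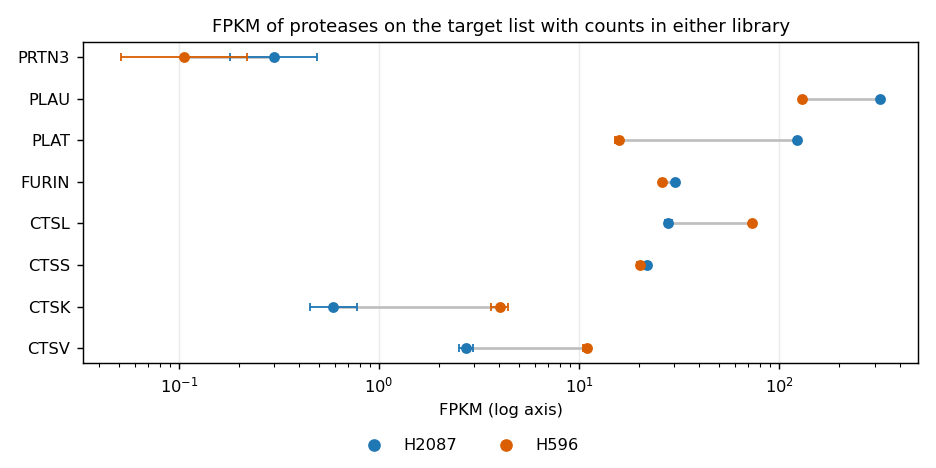
FPKM on a log axis of the 8 listed target proteases with counts in either library, for H2087 (blue) and H596 (orange), with 95% Wilson intervals as error bars. PLAU and PLAT lie further right in H2087, CTSL, CTSK and CTSV further right in H596, and CTSS and FURIN are close to even.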

How the data were processed

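Gene and transcript expression in 1 library each of untreated H2087 and H596 cells was analysed. The authors sequenced stranded mRNA libraries on a HiSeq4000, aligned reads to hg19 with HISAT2 (2.0.5) and estimated abundance with StringTie (1.3.3b). They deposited estimated counts and FPKM values for 27685 genes and 63714 transcripts. How these counts, which are whole numbers, were made and whether strand was used in counting is not given in the sources used here; they were taken as estimates derived from coverage, and if both mates of a pair were counted the intervals are too narrow. The FPKM values deposited by the authors were used without further normalization, and for the members they equalled the sum over transcripts.

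Differences were log2(FPKM + 1), H596 minus H2087, with a pseudocount of 1, and no p-value was computed. The filter was a mean FPKM of at least 1, and a gene was called at a difference of at least 1 in size. Intervals are 95% Wilson intervals of the count share, carried to FPKM, and exact conditional binomial intervals of count ratios (scipy 1.17.1); 3 counts were the limit for a count of 0. They were tested on simulated data with counting error alone, drawn for well-counted genes, so the test does not cover members with few counts. Alternatives were a pseudocount of 0.1, TPM, TMM scaling (edgeR 4.0.16 in R 4.3.3), centring, single transcripts and other filters. Strands and coding sequences came from GRCh37 with GENCODE, promoter windows from RefSeq (GRCh38.p14). Genes were named by rule: all members, the unlisted clade B genes with SERPINB9P1 and HMSD, up to 4 of the other serpins by level or difference, the expressed target proteases, and the nearest and most different neighbours within 1 Mb. ZCCHC2, PHLPP1, BCL2 and KDSR, the target proteases below the filter and the markers were named in addition. The rule for the members reads symbols only, but the members and lists were chosen with earlier results of these data known. Scripts ran in Python 3.11.15 with pandas 2.3.3 and numpy 2.4.6.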

Additional observations from a re-analysis of the deposited data

How the results depend on the processing

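The members called, the cluster medians and each member's difference were recomputed under the alternatives. The 5 members higher and 2 lower in H596 kept their numbers under a pseudocount of 0.1, TMM scaling, TPM, centring and no filter. With a filter of a mean FPKM of at least 10 only 2 were called higher, since fewer members were examined. By the highest single transcript the number was again 5, with SERPINB6 called and SERPINB8 not called. The chromosome 18 median of 2.16 was 2.39 with TPM, 2.05 with centring and 1.65 by the highest single transcript. The chromosome 6 median of 0.01 was 0.12 with a pseudocount of 0.1, 0.0727 with edgeR TMM scaling and -0.10 with centring, in each case the value of SERPINB9, so its sign carries nothing. Among 50 values of single members, 49 kept their sign. On the log2(FPKM + 1) scale SERPINB1 was at -0.99 with TMM scaling and SERPINB6 at 0.97 with TPM, both just short of the size called. The median difference of all genes was 0.12 as deposited, 0.30 with TPM and 0.01 with TMM scaling. No paired analysis was possible because there was a single library of H2087 and of H596, and none could be left out. Depth limits SERPINB9, SERPINB11 and SERPINB12, and the split of SERPINB3 from SERPINB4 in H596.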

Other observations

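Serpins of the other clades are mostly secreted, and 21 of them were listed, of which 5 passed the filter. Among those 5, 1 was called higher and 2 lower in H596, beside 18.2% and 14.2% of all genes past the filter. SERPINH1, a chaperone of collagen in the endoplasmic reticulum, had the highest level of the listed serpins. Its FPKM was 70.3 (95% interval, 68.8 to 71.9) in H2087 and 98.4 (95% interval, 96.7 to 100.1) in H596. SERPINA1, which encodes alpha-1-antitrypsin, the main inhibitor of neutrophil elastase in plasma, had an FPKM of 45.0 from 7028 counts in H2087 and 0.790 from 153 counts in H596, a level 57.0-fold higher in H2087 (95% interval, 48.6 to 67.4). SERPINF1, which encodes pigment epithelium-derived factor, had 0 counts in H2087 and an FPKM of 9.95 from 884 counts in H596, at least 249.8-fold higher. SERPINE2, a secreted inhibitor of thrombin and urokinase, was at 6.75 FPKM in H2087 and at 2.30 FPKM in H596. Of the 21 genes, 9 had 0 counts in both libraries.

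HMSD, a small gene between SERPINB10 and SERPINB8 that encodes part of a serpin domain, had 16 counts in H2087 and 0 in H596. It did not pass the filter, so its direction, unlike that of its neighbours on both sides, rests on few counts.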
